A study of Mus musculus with 6 samples.

Results

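The 10 genes described here encode the cohesin complex, its loader and release factors, and the zinc finger protein CTCF. They are *Nipbl*, *Pds5a*, *Pds5b*, *Smc1a*, *Smc3*, *Rad21*, *Stag1*, *Stag2*, *Wapal* and *Ctcf*, and all 10 were found by symbol among the 15266 genes listed. All 10 passed the filter for low counts, which kept 12891 genes. They were selected on the comparison of the lines itself, because *Nipbl* and *Pds5b*, both long transcripts, differed when libraries of the same replicate number were paired, and the question was whether the shorter subunits did the same. For this reason their differences between the lines are given as a description, and the calls and adjusted p-values of that comparison are printed only to show how the members were chosen.

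The libraries are mRNA-seq of embryoid bodies (EBs), aggregates of differentiating embryonic stem cells, after 4 days in serum without LIF (D4 EBs), the stem cells of both lines having been kept in 1000 U/ml LIF before. Both lines derive from W9.5 mouse embryonic stem cells. EVX1-Δfs (clone 14) carries CRISPR-Cas9 frameshift deletions in both alleles of *Evx1*, in the exon that encodes the homeodomain, with the antisense lncRNA gene *Evx1as* left in place. Del#3 (Evx1/Evx1asΔ2.6kb) lacks the promoters and early exons of *Evx1as* together with the start of *Evx1*. The paper infers that EVX1-Δfs cannot make a working EVX1 DNA-binding domain, and it found almost no *Evx1* RNA in Del#3 by qRT-PCR. EVX1 protein is not reported in either line. EVX1-Δfs is represented by a single clone. Del#3 came from picked clones whose number in these libraries is not given in the sources used here. Unedited W9.5 EBs were not analysed here. Each line has 3 replicates. The series' design text describes side by side differentiations of both lines, each begun on its own day. The sample labels hold only replicate numbers, and equal numbers are read here as the same day.

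Cohesin is a ring built from SMC1A, SMC3 and the kleisin RAD21, to which STAG1 or STAG2 binds. NIPBL, with its partner MAU2, loads the ring on chromatin and drives the extrusion of DNA loops, PDS5A and PDS5B bind the loaded ring, and WAPL (listed here as *Wapal*) releases it. CTCF binds DNA and halts cohesin, so that its sites become loop anchors, and the same ring holds sister chromatids together until mitosis. Dosage of these proteins matters in embryonic cells, and heterozygous loss of *NIPBL* causes Cornelia de Lange syndrome in humans.

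Because values moved with base composition in some libraries (described further on), a stretch of coding sequence is shown for 6 members. Each is the first window of 120 bases within a wholly coding exon whose G and C content is nearest to that of the whole coding sequence, read 5′ to 3′ from NCBIM37 (the assembly known as mm9) with G and C in capitals. *Nipbl* and *Pds5b* are the members the choice began with, *Stag2* and *Smc3* are cohesin subunits of low G and C content, and *Rad21* and *Ctcf* had the log2 fold changes nearest to 0.
Nipbl, chr15:8308871-8308990, minus strand, exon 9 of 47, 41.7% G and C: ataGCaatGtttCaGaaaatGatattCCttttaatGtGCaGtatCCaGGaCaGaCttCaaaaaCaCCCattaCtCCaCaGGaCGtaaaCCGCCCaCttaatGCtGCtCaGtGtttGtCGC
Pds5b, chr5:151522418-151522537, plus strand, exon 3 of 35, 43.3% G and C: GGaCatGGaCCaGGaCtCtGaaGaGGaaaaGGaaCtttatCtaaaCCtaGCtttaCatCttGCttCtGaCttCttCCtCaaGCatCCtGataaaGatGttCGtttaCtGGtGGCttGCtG
Stag2, chrX:39564280-39564399, plus strand, exon 4 of 34, 40.8% G and C: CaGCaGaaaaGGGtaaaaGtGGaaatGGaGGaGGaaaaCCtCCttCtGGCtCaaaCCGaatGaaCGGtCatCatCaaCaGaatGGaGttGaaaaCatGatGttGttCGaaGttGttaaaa
Smc3, chr19:53697577-53697696, plus strand, exon 11 of 29, 42.5% G and C: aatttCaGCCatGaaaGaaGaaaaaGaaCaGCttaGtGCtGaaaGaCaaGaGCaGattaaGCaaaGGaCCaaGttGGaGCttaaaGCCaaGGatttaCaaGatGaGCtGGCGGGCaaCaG
Rad21, chr15:51809594-51809713, minus strand, exon 3 of 14, 49.2% G and C: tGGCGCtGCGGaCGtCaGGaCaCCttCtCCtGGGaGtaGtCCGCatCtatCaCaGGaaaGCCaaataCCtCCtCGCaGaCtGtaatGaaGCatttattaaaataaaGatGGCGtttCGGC
Ctcf, chr8:108188777-108188896, plus strand, exon 4 of 12, 49.2% G and C: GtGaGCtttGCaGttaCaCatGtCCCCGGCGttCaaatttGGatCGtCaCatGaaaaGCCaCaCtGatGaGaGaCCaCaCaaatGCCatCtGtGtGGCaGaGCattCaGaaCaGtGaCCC
Over the whole coding sequence, G and C made up 41.9% of *Nipbl*, 43.1% of *Pds5b*, 41.0% of *Stag2* and 42.6% of *Smc3*, against 48.8% of *Rad21* and 49.0% of *Ctcf*. The members not shown do not all follow this split. *Smc1a* had 47.7%, with a log2 fold change of 0.43. Over all exons *Rad21* had 45.1% and *Pds5a* 44.01%, with log2 fold changes of -0.09 and 0.90. Over the 10 members, the correlation of exon G and C content with the log2 ratio of the highest to the lowest library was -0.50, a description over genes that share 6 libraries. That ratio was 4.00-fold for *Rad21* and 3.91-fold for *Stag1*, whose coding sequence had 42.2% G and C.

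Values are normalized counts as deposited, in which reads per gene are divided by a size factor for the library. Recovered reads on the listed genes numbered 9024579 to 15699124 per EVX1-Δfs library (median 9546166) and 9729013 to 12231851 per Del#3 library (median 9802928). For *Evx1* the EVX1-Δfs libraries gave 2655, 3671 and 3051 normalized counts, listed here and throughout in the order of replicates 1 to 3, and the Del#3 libraries 38.3, 32.5 and 33.1, and *Evx1as* (5730457N03Rik) had 580, 689 and 675 against 16.7, 25.5 and 32.0, so both genes separated the lines as labelled. All 8 streak and mesoderm markers, all 3 endoderm markers and all 5 pluripotency and epiblast markers were detected above the filter. Of 9 markers of other cell types, the neural genes *Sox1* and *Pax6* and the visceral endoderm gene *Afp* lay under it. The summed level of the 9 was 10777 to 15983 normalized counts in EVX1-Δfs and 12868 to 14782 in Del#3, most of it from the epithelial keratin *Krt8* (7844 to 12483 over the 6 libraries). The visceral endoderm gene *Ttr* was low, at 40.9, 24.6 and 22.4 in EVX1-Δfs and 69.3, 40.6 and 37.4 in Del#3, with a log2 fold change of 0.72 (standard error 0.41), and *Cdx2* was at 0.42 (standard error 0.25). The pluripotency gene *Zfp42* (also known as Rex1) had 343, 341 and 457 in EVX1-Δfs and 288, 181 and 187 in Del#3, lower in every Del#3 library, with a log2 fold change of -0.82 (standard error 0.28). The endoderm genes *Sox17* (-0.35, standard error 0.22) and *Cer1* (-0.28, standard error 0.24) were lower in Del#3 within each replicate, and *Foxa2* was at 0.01 (standard error 0.33). The highest log2 fold change of the streak and mesoderm markers was that of *Sp5* (0.12) and of the pluripotency and epiblast markers that of *Fgf5* (-0.06), and the lowest of the markers of other cell types was that of *Kdr* (-0.12). List medians were -0.16 for streak and mesoderm, -0.28 for endoderm, -0.22 for pluripotency and epiblast, and 0.18 for other cell types. *Mixl1* (-0.24, standard error 0.23) and *Eomes* (-0.23, standard error 0.29) were lower in Del#3 within each replicate, and no streak marker was higher in each. *Gata1* (0.31, standard error 0.30) was higher in each. Of all these markers, limma called only *Evx1*. Their part in the members' values was not tested. Every Del#3 library lay above every EVX1-Δfs library for 0 of the 10 members, and for 1.71% of the genes tested. In bulk RNA of whole EBs, fewer cells of a type and less RNA per cell cannot be told apart.

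*Nipbl*, the loader, had the largest difference between the lines of the 10 members. It had 130, 21.1 and 69.7 normalized counts in EVX1-Δfs, and 584, 114 and 90.8 in Del#3. Del#3 was higher within each replicate, but the lines overlapped, since EVX1-Δfs replicate 1 lay above Del#3 replicates 2 and 3. The highest library was 27.7-fold above the lowest, the widest range of any member. Reads were few at the low end, with 18 in EVX1-Δfs replicate 2 and 59 in replicate 3. The log2 fold change (Del#3 against EVX1-Δfs, of normalized counts + 1) was 1.64 with a standard error of 0.75, and its 95% interval ran from -0.03 to 3.30. Without Del#3 replicate 1 the log2 fold change was 0.80 (standard error 0.57). Within replicates the Del#3 value was 4.49-fold, 5.39-fold and 1.30-fold the EVX1-Δfs value. *Mau2*, whose product is the partner of NIPBL in the loader, was level across the same libraries, at 1680, 2167 and 1938 in EVX1-Δfs and 1843, 2008 and 2075 in Del#3, with a log2 fold change of 0.04 (standard error 0.21). On the log2 scale the ratio of *Nipbl* to *Mau2* therefore ran from -6.68 in EVX1-Δfs replicate 2 to -1.66 in Del#3 replicate 1.

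**Figure D1:**
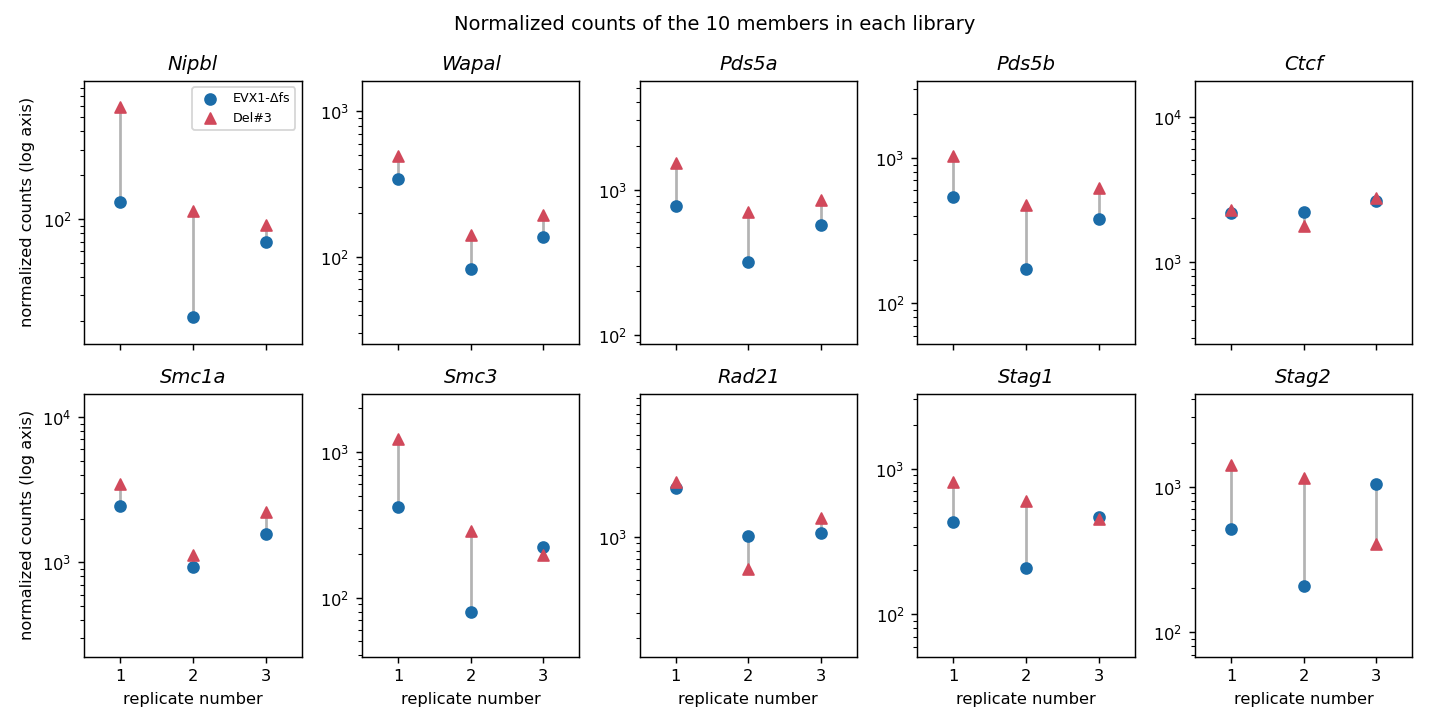
Normalized counts (log axis, each panel spanning the same fold range) of each of the 10 members by replicate number, with circles for EVX1-Δfs, triangles for Del#3 and a line joining the libraries of 1 replicate. *Ctcf* lies within 1.55-fold over the 6 libraries and *Nipbl* within 27.7-fold, and the lines overlap in every panel.

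The ring subunits had unlike values. *Smc3*, which pairs with SMC1A to form the arms of the ring, had 418, 79.7 and 223 normalized counts in EVX1-Δfs and 1233, 287 and 198 in Del#3. Del#3 was higher in replicates 1 and 2 and lower in replicate 3, with a log2 fold change of 1.07 (standard error 0.70, interval -0.47 to 2.62). Without Del#3 replicate 1 that of *Smc3* was 0.28 (standard error 0.50). *Smc1a*, on the X chromosome, had 2450, 927 and 1558 in EVX1-Δfs and 3468, 1121 and 2213 in Del#3. Its values kept the order of the replicates in both lines (1 highest, 2 lowest), with Del#3 higher in each and a log2 fold change of 0.43 (standard error 0.44, interval -0.54 to 1.39). *Rad21*, the kleisin that closes the ring, had 2153, 1008 and 1063 in EVX1-Δfs and 2385, 597 and 1338 in Del#3. Here Del#3 was lower in replicate 2 and higher in the other replicates, and the log2 fold change was -0.09 (standard error 0.47, interval -1.13 to 0.94). The log2 ratio of *Smc3* to *Smc1a*, whose proteins are in the ring in equal number, ranged from -3.54 in EVX1-Δfs replicate 2 to -1.49 in Del#3 replicate 1.

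*Stag1* and *Stag2*, the alternative subunits that dock on RAD21, were higher in Del#3 in replicates 1 and 2 but not in replicate 3. *Stag1* had 428, 206 and 463 normalized counts in EVX1-Δfs and 807, 600 and 455 in Del#3, and its log2 fold change was 0.81 (standard error 0.35, interval 0.03 to 1.59). *Stag2*, on the X chromosome, had 508, 207 and 1048 in EVX1-Δfs and 1412, 1143 and 404 in Del#3. Within replicates its log2 difference was 1.47, 2.46 and -1.37, the widest disagreement among the members, and its log2 fold change of 0.85 had a standard error of 0.58 (interval -0.44 to 2.14). The log2 ratio of *Stag2* to *Stag1* was 0.25, 0.01 and 1.18 in EVX1-Δfs and 0.81, 0.93 and -0.17 in Del#3, with means of 0.48 ± 0.62 and 0.52 ± 0.60 (SD, n = 3), so the difference between the lines was smaller than the spread within either.

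The ring-binding factors were higher in Del#3 within every replicate. *Pds5a* had 769, 320 and 569 normalized counts in EVX1-Δfs and 1519, 705 and 851 in Del#3, with a log2 fold change of 0.90 (standard error 0.37, interval 0.07 to 1.73). *Pds5b* had 539, 173 and 378 in EVX1-Δfs and 1027, 476 and 621 in Del#3, with 1.03 (standard error 0.42, interval 0.10 to 1.97). In both genes EVX1-Δfs replicate 1 reached above the lowest Del#3 library, and the lines overlapped. The log2 ratio of *Pds5b* to *Pds5a* was among the steadiest quantities here, at -0.66 ± 0.19 in EVX1-Δfs and -0.53 ± 0.06 in Del#3 (SD, n = 3). *Wapal*, the release factor, had 341, 83.2 and 137 in EVX1-Δfs and 492, 141 and 195 in Del#3. Its log2 differences within replicates were alike, at 0.53, 0.75 and 0.51, whereas each line spanned more than that between its own replicates (log2 fold change 0.59, standard error 0.55, interval -0.63 to 1.82).

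*Ctcf* had 2181, 2210 and 2611 normalized counts in EVX1-Δfs and 2287, 1762 and 2736 in Del#3. It was the steadiest member, with a log2 fold change of -0.06 (standard error 0.24) and a 95% interval from -0.59 to 0.46. Its log2 deviation from the mean of the 6 libraries was -0.37 in Del#3 replicate 2, 0.27 in Del#3 replicate 3 and 0.20 in EVX1-Δfs replicate 3, and between -0.06 and 0.01 in the others.

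**Figure D2:**
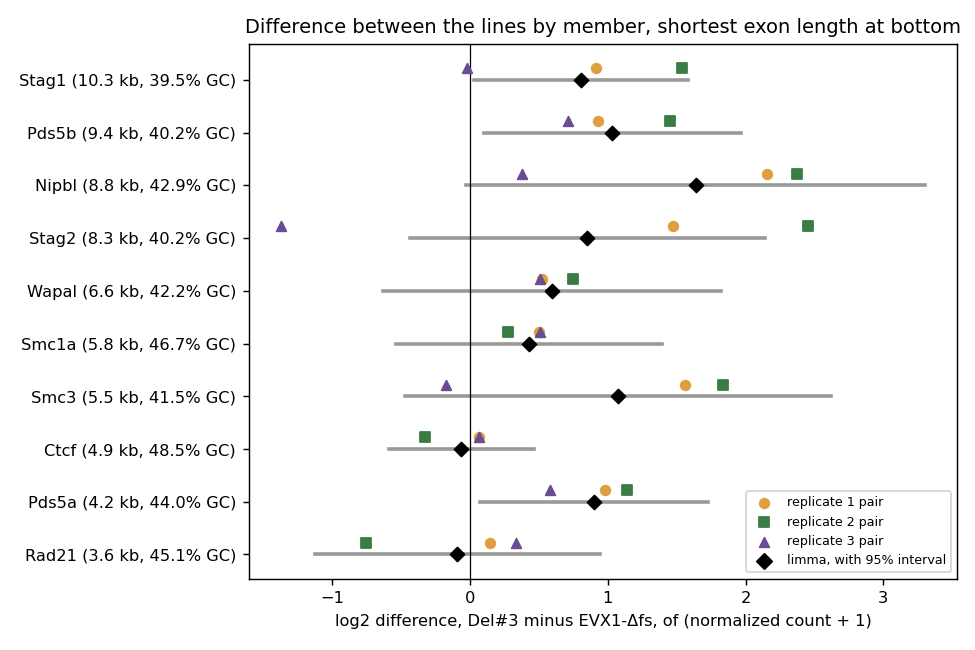
Log2 difference (Del#3 minus EVX1-Δfs, of normalized counts + 1) of each member within replicates 1, 2 and 3 (circles, squares, triangles) and by limma (diamonds, bars the 95% interval), ordered by exon length. *Stag2* spans -1.37 to 2.46 between replicates, and the shortest member, *Rad21*, and *Ctcf* lie about 0.

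Counted over the members, 8 log2 fold changes were positive and 2 negative, with a median of 0.83 against 0.00 for all genes tested. Of the 10 members, 5 (*Nipbl*, *Pds5a*, *Pds5b*, *Smc1a* and *Wapal*) were higher in Del#3 in all 3 replicates and the other 5 in 2 of 3, where 12.1% of all genes tested were higher in all 3. Without *Nipbl* and *Pds5b* the count was 3 of 8, and since the comparison of the lines chose the members, nothing is read from these counts or from the median. By limma without a covariate, 0 of the 10 were called at an adjusted p of 0.05, as were 0.0155% of all genes (2 genes, *Evx1* and *Evx1as*). Without adjustment 133 genes were under 0.05 by limma, among them 3 members (*Pds5a*, *Pds5b* and *Stag1*), and edgeR and DESeq2 without a block also called no member. Once replicates entered the model as a block, limma called 0 members and 0.0233% of genes (596 genes were under 0.05 without adjustment, 7 members among them), and DESeq2 called 2 members and 0.156% of genes. The 2 are those the members were chosen by, so nothing is read from that count. In that DESeq2 fit *Nipbl* (log2 fold change 1.66, standard error 0.39) and *Pds5b* (1.03, standard error 0.25) were just inside the threshold, each with an adjusted p of 0.0348. *Pds5a* (0.90, standard error 0.23) lay just outside, at 0.0516, and *Smc3* followed at 0.218. These values restate the choice of the members and are no test of it.

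On the question of length, the members did not sort cleanly. Lengths are those of all exons of the gene joined, and 9 of the 10 members were longer than the median gene tested (3.76 kb). *Pds5a*, at 4.16 kb the second shortest member, had a log2 fold change of 0.90, close to *Pds5b* at 9.40 kb, *Stag2* at 8.27 kb and *Stag1* at 10.3 kb. *Rad21* (3.60 kb) and *Ctcf* (4.86 kb) were near 0, while *Smc3*, at 5.55 kb and thus between *Ctcf* and *Smc1a* (5.77 kb), was at 1.07. Over the 10 members the correlation of log2 fold change with log2 length was 0.63, and that with G and C content was -0.64. The members share the same 6 libraries and their length and base composition go together, so these are descriptions. The annotation gives *Nipbl* 8.82 kb without any 3′ UTR, so its length is a lower value than the others would be on the same footing.

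The same trends ran through all genes tested that had a length and a G and C content (12130 genes). The median log2 fold change climbed from -0.17 in genes under 1 kb to 0.15 in genes over 8 kb. Replicate 2 ran the other way. Between the same bins, the median log2 difference went from -0.32 to 0.21 in replicate 1. It went from 0.15 to -0.12 in replicate 2 and from -0.36 to 0.31 in replicate 3. Against G and C content the median log2 fold change was 0.37 in genes under 40%, 0.22 from 40% to 42%, 0.03 from 42% to 44%, -0.10 from 44% to 46%, -0.10 from 46% to 48% and 0.07 over 60%. In genes under 40% the median log2 difference was 0.39, 0.83 and -0.09 in replicates 1 to 3. All 10 members lay below the median G and C content of the genes tested (50.4%). *Stag1* (39.5%), *Pds5b* (40.2%), *Stag2* (40.2%) and *Smc3* (41.5%) fell in the first of these bins or the second, and *Nipbl* (42.9%) and *Wapal* (42.2%) in the next. *Pds5a* (44.01%), *Rad21* (45.1%), *Smc1a* (46.7%) and *Ctcf* (48.5%) were in bins whose medians were below 0, although the log2 fold changes of *Pds5a* and *Smc1a* were 0.90 and 0.43. The 8 members with a positive log2 fold change were above the middle 50% of the genes in their own G and C bins. The choice of the members and the condition of a positive value fix this in part, and nothing is read from it.

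**Figure D3:**
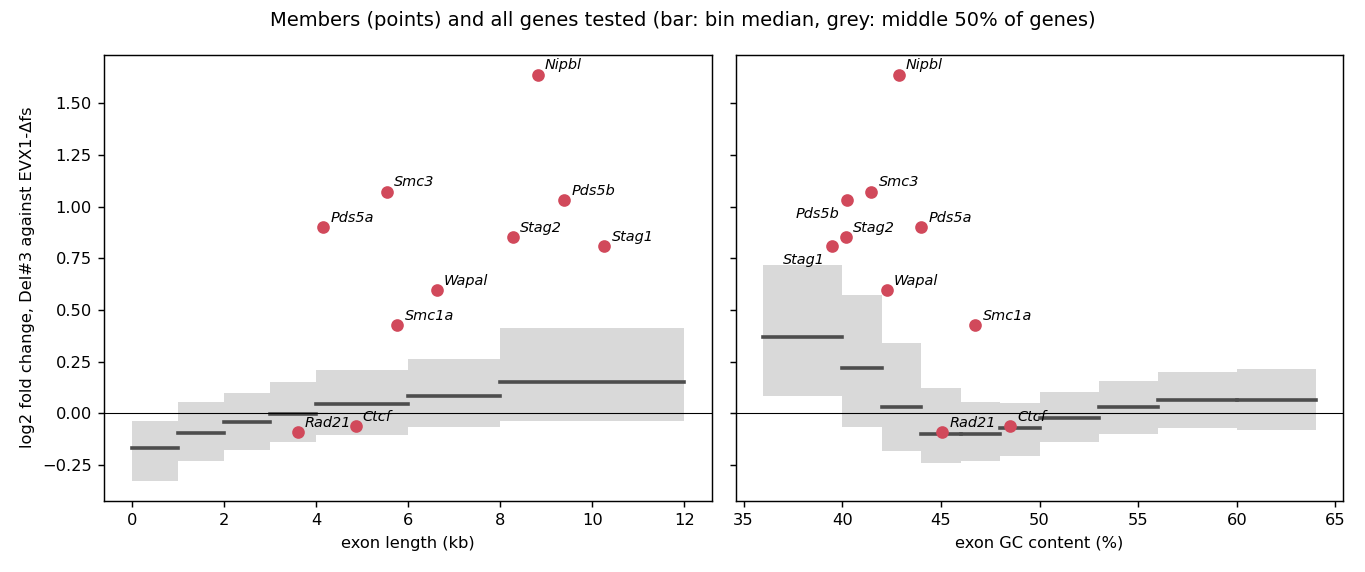
Log2 fold change of each member (points, Del#3 against EVX1-Δfs) against exon length in kb (left) and exon G and C content in percent (right), over the median (bar) and middle 50% (grey) of all genes in each bin, with the outer bins drawn to a limited width. The bin medians run from -0.17 to 0.15 with length, and 8 of the members lie above 0.

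The trend with base composition was widest in EVX1-Δfs replicate 2 and Del#3 replicate 1. In genes with under 40% G and C, the median deviation from the mean of the 6 libraries was -0.91 (log2) in EVX1-Δfs replicate 2 and 0.66 in Del#3 replicate 1, and between -0.02 and 0.16 in the other 4. EVX1-Δfs replicate 2 was also the lowest library for *Nipbl*, *Pds5a*, *Pds5b*, *Smc1a*, *Smc3*, *Stag1*, *Stag2* and *Wapal*, that is for 8 members, and Del#3 replicate 1 was the highest for 9, all but *Ctcf*. The deviation of *Nipbl* was -2.23 in the first of these libraries and 2.49 in the second, and that of *Smc3* was -1.82 and 2.11, beyond the bin medians in each case. *Ctcf* deviated by -0.04 and 0.01. Other libraries also moved with base composition, in other bins. From 42% to 44% and from 44% to 46% G and C, the medians in Del#3 replicate 2 were -0.32 and -0.33. In EVX1-Δfs replicate 1 they were 0.25 and 0.20. Del#3 replicate 2 was the lowest library for *Rad21*, with a deviation of -1.10, and for *Ctcf*, with -0.37. The part of base composition, RNA quality or the library preparation in these values was not tested. The study's methods state that total RNA passed a Bioanalyser quality threshold, and values per library are not given in the sources used here.

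When the trends with length and with G and C content were removed from each library by a loess fit over all genes, the members' ranges narrowed. The difference between the highest and the lowest library shrank from 4.73 to 3.65 (log2) for *Nipbl*, from 2.56 to 1.00 for *Pds5b*, from 1.96 to 0.70 for *Stag1* and from 0.64 to 0.46 for *Ctcf*. The log2 fold change became 1.39 for *Nipbl* (standard error 0.56), 0.82 for *Smc3* (0.50), 0.59 for *Pds5b* (0.23), 0.44 for *Stag2* (0.45) and 0.30 for *Stag1* (0.22). That of *Pds5a* remained at 0.90 (0.26), that of *Smc1a* was 0.46 (0.34) and that of *Wapal* went from 0.59 to 0.36 (0.36). *Rad21* (-0.02, standard error 0.36) and *Ctcf* (-0.01, standard error 0.21) were again near 0.

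**Figure D4:**
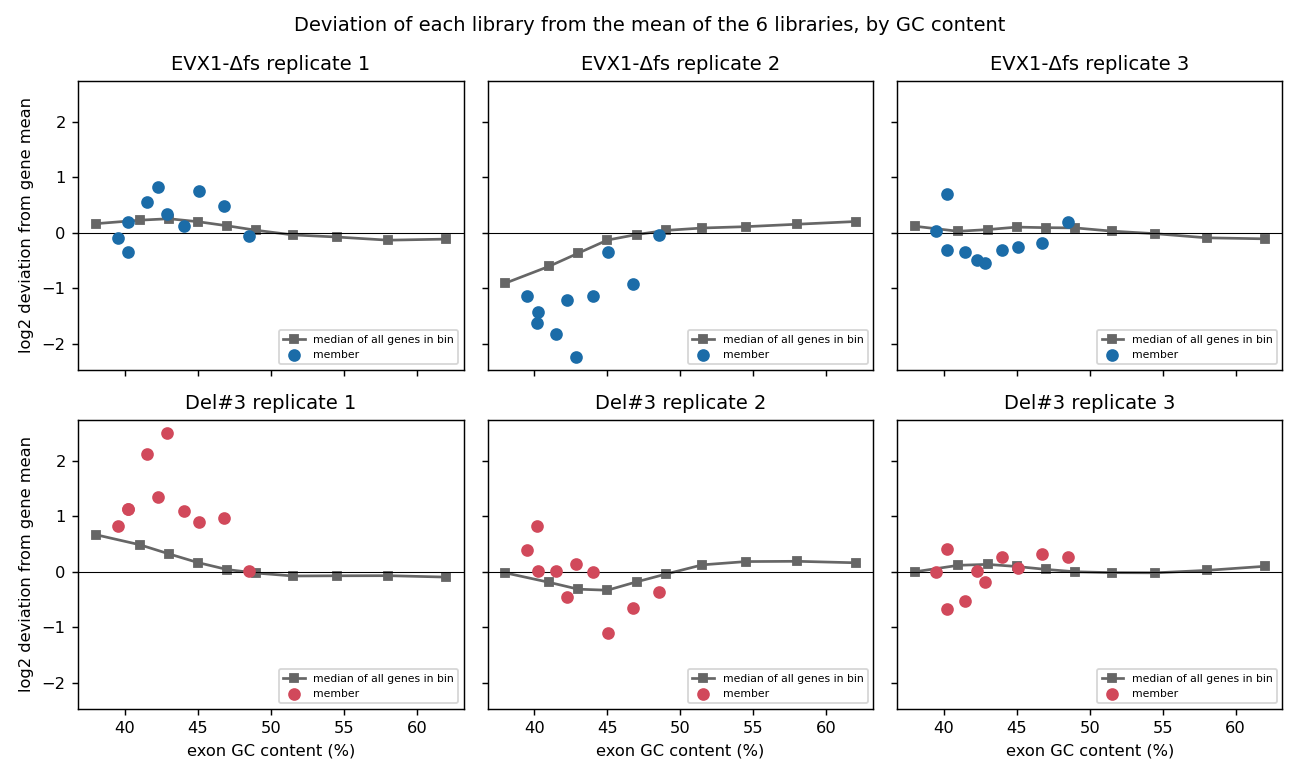
Log2 deviation of each library from the mean of the 6 libraries against exon G and C content in percent, as the median of all genes in each bin (line) and for the 10 members (points), in 1 panel per library. Genes under 40% lie at -0.91 in EVX1-Δfs replicate 2 and at 0.66 in Del#3 replicate 1, and members in those panels reach -2.23 and 2.49.

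The difference between replicate numbers, read as differentiation days, does not use the contrast of the lines that the members were chosen by, although it shares its estimate of the spread, and it was tested for the 8 members other than *Nipbl* and *Pds5b*. By limma's F test between replicates, with the line in the model and Benjamini-Hochberg adjustment over 12891 genes, 5 of these 8 differed at 0.05, where 4.24% of all genes did. They were *Smc1a* (adjusted p = 0.0238), *Wapal* (0.0238), *Rad21* (0.0434), *Smc3* (0.0477) and *Pds5a* (0.0484). *Stag1* (0.323), *Ctcf* (0.336) and *Stag2* (0.690) did not pass. Over both lines, replicate 1 was above replicate 2 by 2.24 (log2) for *Smc3*, 1.91 for *Wapal*, 1.55 for *Rad21*, 1.52 for *Smc1a* and 1.18 for *Pds5a*, against a median of 0.03 over all genes tested. *Ctcf* differed by 0.18. Among the named 5, the difference between replicates 1 and 3 was smaller than that between 1 and 2, from 0.63 in *Pds5a* to 1.77 in *Smc3*.

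These day differences depended on single libraries. The counts that follow cover all 10 members, so *Nipbl* and *Pds5b*, by which the members were chosen, are among those counted. Without Del#3 replicate 1 the F test called 2 of the 10 members and 212 of 12891 genes. Without EVX1-Δfs replicate 1 it called 3 members and 194 genes. After correction for length and G and C content the F test called only *Smc1a* (adjusted p = 0.0297) among the members and 304 of 12130 genes. After that correction the adjusted p by limma's F test was 0.0535 for *Wapal*, 0.0683 for *Rad21*, 0.0863 for *Smc3* and 0.183 for *Pds5a*. Without adjustment 2944 of the 12130 genes were under 0.05, as were 6 of the 10 members, *Nipbl* among them. Nothing is read from that count. A lost call alone does not show that a difference was lost, and whether the day differences outlast the correction is not settled here. Leaving out any of the other 4 libraries gave 7 to 9 members and 1500 to 3247 genes. The day of differentiation, RNA extraction and library preparation cannot be told apart here, since the labels give only the replicate number.

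Levels between members are comparable only per length, and were computed as RPKM from the normalized counts, the exon length and the mean library total. The order by the mean of the 6 libraries was *Ctcf* 44.5, *Rad21* 37.2, *Smc1a* 31.9, *Pds5a* 17.9, *Stag2* 8.96, *Smc3* 6.90, *Pds5b* 5.37, *Stag1* 4.52, *Wapal* 3.29 and *Nipbl* 1.80. The annotated transcript of *Nipbl* lacks a 3′ UTR, so its value is not on the same footing as the others. Its last place held with coding length, at 1.89 against 6.05 for *Wapal*. The ranges of all neighbours in this order overlapped. Even so, *Smc1a* was above *Pds5a*, *Pds5a* above *Stag2* and *Wapal* above *Nipbl* within each of the 6 libraries, whereas *Pds5b* was above *Stag1* in 3 of 6. By line, *Ctcf* was at 45.2 ± 4.66 in EVX1-Δfs and 43.8 ± 9.45 in Del#3 (SD, n = 3), *Rad21* at 36.8 ± 16.9 and 37.6 ± 23.5, and *Nipbl* at 0.786 ± 0.583 and 2.81 ± 2.97. *Smc3* was at 4.08 ± 2.88 and 9.72 ± 9.74 RPKM, well under its ring partner *Smc1a* at 26.8 ± 12.5 and 37.0 ± 19.2. The composition trends above are in these values too. With coding length in place of exon length 6 of the 10 members kept their place in the order, and *Stag2* (19.5) came to lie above *Pds5a* (18.6) and *Stag1* (12.3) above *Pds5b* (11.6). With the longest coding transcript as the length, *Smc1a* (39.3) lay above *Rad21* (37.2). Without Del#3 replicate 1 the mean of *Nipbl* was 0.909 and that of *Smc3* 4.09, under *Pds5b* at 4.38.

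**Figure D5:**
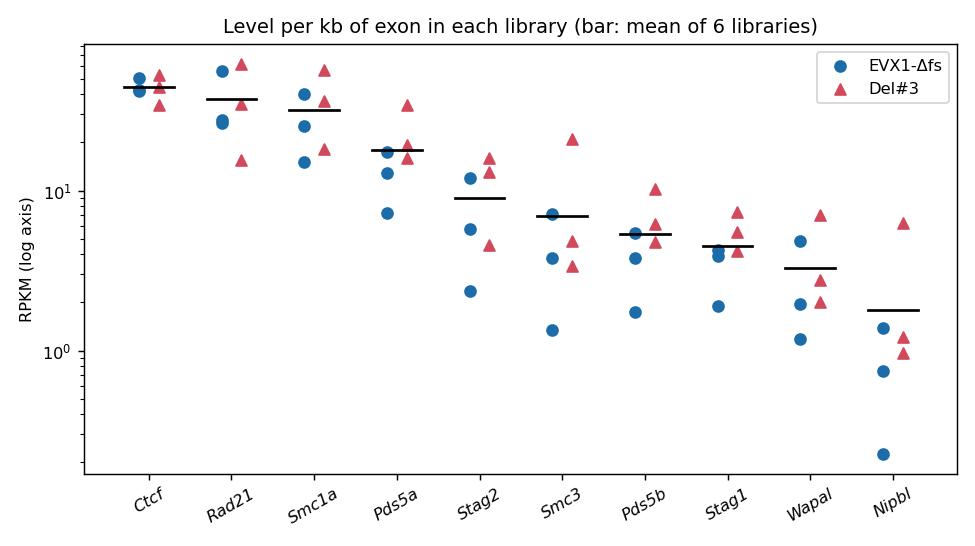
Level per kb of exon (RPKM, log axis) of each member in each library, with circles for EVX1-Δfs, triangles for Del#3 and bars for the mean of the 6 libraries. The means fall from 44.5 for *Ctcf* to 1.80 for *Nipbl*, and each gene's range overlaps that of the next.

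The pattern of *Nipbl* over the 6 libraries was shared by other members to unequal degrees. The Pearson correlation of log2 values with *Nipbl* was 0.99 for *Smc3*, 0.97 for *Pds5a*, 0.95 for *Pds5b*, 0.92 for *Stag1*, 0.91 for *Wapal*, 0.84 for *Smc1a*, 0.76 for *Stag2*, 0.57 for *Rad21* and -0.07 for *Ctcf*. Outside the members, the genes most like *Nipbl* among 9113 with a mean of at least 100 were *Trim12c*, *Fndc3c1*, *Psip1*, *Aspm* and *Wwp1*, with correlations of 0.991 to 0.995, and 241 genes were above 0.9. *Aspm* encodes a spindle pole protein and *Psip1* a chromatin protein also known as LEDGF. These 5 genes had 39.6% to 43.8% G and C, as in the lower part of the members' range. The genes most like *Rad21* were *Pphln1*, *Clasp1*, *Sox11*, *Zzef1* and *Plxna2* (0.995 to 0.9998), with 44.5% to 62.8% G and C, and 601 genes were above 0.9. All points share 6 libraries, their depth and their composition trends, and the correlations are descriptions.

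Genes that act on cohesin beyond the members gave a mixed picture, with a median log2 fold change of 0.13 over 16 cohesin regulators, all tested. None was called between the lines by limma or DESeq2, with or without the block. In all 3 replicates, 3 were higher in Del#3 and 2 lower. Of all genes tested, 12.1% were higher in all 3 and 1417 of 12891 lower, so nothing is read from these counts. The log2 fold changes ranged from *Dscc1*, a subunit of an alternative clamp loader used in cohesion, at -0.53 (standard error 0.32), to *Sgol2*, a protector of centromeric cohesion, at 1.29 (standard error 0.93). *Sgol2* had 110, 8.20 and 75.6 normalized counts in EVX1-Δfs and 277, 118 and 33.1 in Del#3, so that its lowest library was again EVX1-Δfs replicate 2 and its highest Del#3 replicate 1. *Sgol1*, which shields mitotic cohesin from WAPL, was the only gene of the 16 that differed between days (limma F test, adjusted p = 0.0302), where 4.24% of all genes did. Of the meiotic cohesin genes, *Smc1b* and *Rad21l* lay under the filter, *Rec8* was at 0.06 and *Stag3* at 0.29.

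The related SMC complexes were described in the same way. The 14 genes of condensin and SMC5/6 had a median log2 fold change of 0.14, from *Nsmce2* at -0.27 (standard error 0.29) to *Smc2*, an SMC subunit of condensin, at 1.12 (standard error 0.52), and none was called between the lines or between days. *Smc2* had 394, 163 and 663 normalized counts in EVX1-Δfs and 1235, 865 and 408 in Del#3, with the reversal in replicate 3 that *Stag2* had. Of 10 architectural factors beside *Ctcf*, 9 were tested, with a median of 0.09, from *Yy1*, a zinc finger protein, at -0.30 (standard error 0.28) to *Bptf*, a chromatin remodeller subunit, at 0.41 (standard error 0.57), and the *Ctcf* paralog *Ctcfl* lay under the filter.

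Proliferation markers, given because cohesin genes are used in every dividing cell, had a median of -0.01 over 8 genes. *Mki67*, at 10.1 kb the longest of them, had the highest log2 fold change, 1.503 (standard error 0.68), with 771, 229 and 1063 normalized counts in EVX1-Δfs and 4541, 1411 and 669 in Del#3. *Ccnb1*, a mitotic cyclin, had the lowest, at -0.23 (standard error 0.27). *Top2a*, which untangles sister chromatids, was higher in Del#3 within each replicate (0.73, standard error 0.62) and differed between days (limma F test, adjusted p = 0.0225), and no gene of this list was called between the lines. The summed level of the 8 genes was 27053 to 33686 normalized counts in EVX1-Δfs and 29196 to 37421 in Del#3.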

How the data were processed

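Poly(A) RNA of D4 EBs was sequenced on the Ion Proton. The authors used TopHat2, followed by TMAP, to map reads to mm9, counted them on genes with HTSeq at standard settings and tested with DESeq2. The annotation used for counting is not given in the sources used here. The deposited signal values are normalized counts, and 100% of them were whole multiples of 1 step per library (tolerance 0.01 reads), so reads were recovered by division. Within a library, reads are not independent molecules, and the spread between replicates sets the precision.

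The lines were compared with limma 3.58.1 (R 4.3.3, intensity trend, no covariate) on log2(normalized count + 1), over 12891 genes kept by filterByExpr of edgeR 4.0.16 (minimum count 10), with Benjamini-Hochberg adjustment at 0.05. Fold changes on this scale understate those of low genes. Alternatives were edgeR's quasi-likelihood test and DESeq2 1.42.0 on recovered reads, a replicate block, other pseudocounts and filters, removal of length and GC trends (loess, span 0.3) and leaving out libraries. The limma, edgeR and DESeq2 fits and the correction were tested on simulated data.

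The series' design text describes 3 side by side differentiations of both lines, each begun on its own day. The sample labels carry only replicate numbers, and libraries of equal number were read as one day and paired. Deviations from the line means correlated by 0.738, 0.317 and -0.0530 across genes for replicates 1 to 3, so that the libraries of replicate 3 did not deviate together.

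The members and the lists were chosen with earlier results of these data known. Named were all members, *Evx1*, *Evx1as*, *Mau2*, the highest and lowest of each related list, list genes that differed, and the 5 genes most like *Nipbl* and *Rad21*. Other list genes, such as *Krt8*, *Cdx2* and *Cer1*, were named after their values were seen. Positions, lengths and sequences come from NCBIM37 with its GENCODE annotation, which matched 14262 of 15266 symbols. Rows with date-like names (2) are spreadsheet conversions and hold no member.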

Additional observations from a re-analysis of the deposited data

How the results depend on the processing

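Over 25 alternatives each, the log2 fold changes of 8 members stayed positive, from 0.80 to 2.27 for *Nipbl*, 0.55 to 1.18 for *Pds5a*, 0.57 to 1.39 for *Pds5b*, 0.05 to 0.86 for *Smc1a*, 0.28 to 1.70 for *Smc3*, 0.30 to 1.23 for *Stag1*, 0.05 to 1.96 for *Stag2* and 0.07 to 1.15 for *Wapal*. Some alternatives could not move the estimate. In limma the replicate block and the other filters returned the same value (1.64 for *Nipbl*). The block likewise left the corrected value unchanged (1.39 for *Nipbl*). All use the comparison that chose the members, so nothing is read from the number of alternatives. *Nipbl*, *Smc1a*, *Smc3* and *Wapal* were lowest without Del#3 replicate 1, and *Stag2* without both libraries of replicate 2. The sign of *Rad21* turned to 0.032 with DESeq2, 0.062 with edgeR, 0.26 without EVX1-Δfs replicate 1, 0.43 without Del#3 replicate 2 and 0.24 without both libraries of replicate 2, and leaving out libraries gave -0.56 to 0.43. That of *Ctcf* turned to 0.012 with the replicate block and GC correction, 0.02 without EVX1-Δfs replicate 3, 0.10 without Del#3 replicate 2 and 0.07 without both libraries of replicate 2, and leaving out libraries gave -0.21 to 0.10. With the replicate block DESeq2 called 15 genes and 2 members, and 18 genes and 3 members (*Pds5a* added) on genes kept by filterByExpr, and the block in limma or edgeR called no member. Between days, limma's F test called 546 of 12891 genes and 7 members, *Nipbl* and *Pds5b* among them. DESeq2's likelihood ratio test called 1302 of 12010 genes and the same 7 members. The length and GC correction left 304 of 12130 genes and 1 member, and leaving out a library gave 194 to 3247 genes and 2 to 9 members. With the longest coding transcript or the coding length, 6 members kept their place in the order of levels. The cause of these changes was not tested.

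With 3 libraries per line, the 95% intervals of most members without the block include both 0 and a 2-fold change. With the replicate block in limma they were narrower, at 0.77 to 2.51 for *Nipbl*, 0.49 to 1.31 for *Pds5a*, 0.58 to 1.49 for *Pds5b*, 0.06 to 0.79 for *Smc1a*, 0.26 to 1.89 for *Smc3*, 0.17 to 1.44 for *Stag1*, 0.15 to 1.04 for *Wapal*, -0.61 to 0.43 for *Rad21* and -0.45 to 0.32 for *Ctcf*, but not for *Stag2* (-0.48 to 2.18). These intervals are not adjusted over genes and belong to the comparison that chose the members. The lowest *Nipbl* value rests on 18 reads.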
